A study of Homo sapiens with 6 samples.

Results

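The levels of 10 genes of the canonical Wnt pathway were followed in the established human glioblastoma line LN-229 after a treatment labelled sh-JMJD1C. The genes are FZD2, LRP6, DVL1, APC, AXIN1, AXIN2, GSK3B, TNKS, CTNNB1 and TCF7L2. They were chosen by symbol, with no measured value in the rule but with earlier results of these data known. Counts of members set beside shares over all genes are therefore a description. Each member was found once by its Ensembl identifier among the 58174 genes of the deposited tables. One group of 3 libraries is labelled control-NC treated and the other group of 3 is labelled sh-JMJD1C treated, by the usual reading of that name a short hairpin RNA against JMJD1C, a gene of the Jumonji histone demethylase family. The hairpin's sequence, the number of hairpins, the time after treatment and the meaning of NC do not appear in the labels. Both groups share the cell line, TRIzol extraction, enrichment for nuclear RNA and depletion of ribosomal RNA. Nothing in the labels ties the libraries to separate cultures, so p-values measure only the spread between these libraries, which may be technical. Values of single libraries are given in the order of the replicate numbers, 1 to 3.

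In the canonical Wnt pathway, a Wnt ligand joins a Frizzled receptor (here FZD2) to the co-receptor LRP6, and Dishevelled proteins (DVL1) pass the signal into the cell. Without a ligand, the scaffolds APC and AXIN1 or AXIN2 hold beta-catenin, the product of CTNNB1, where the kinase GSK3B marks it for destruction. Tankyrase (TNKS) modifies axin proteins and so leads to their loss, and beta-catenin that escapes destruction enters the nucleus and acts with TCF factors such as TCF7L2 on target genes, AXIN2 among them.

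The targeted gene and the libraries set the limits of what follows. JMJD1C had 1006 recovered reads in the control libraries and 132 in the sh-JMJD1C libraries, and its scaled FPKM averaged 18.4% of control. Its longest annotated transcript is long (8666 nt) and poor in GC (39.9%), and such genes were lower in sh-JMJD1C as a class, as described below. Scaled FPKM is the deposited FPKM, fragments corrected for gene length and library size, divided by 1 factor per library. The groups did not overlap for JMJD1C, but its adjusted p was 0.118 on log2 FPKM and 0.0253 on recovered reads, and the two-sided exact permutation test gave p = 0.10, the smallest that 3 against 3 allows. It did not pass on reads when control 1 or 3, or sh-JMJD1C 2 or 3, was left out (adjusted p from 0.0634 to 0.117). The libraries held between 544442 and 2960454 reads, with control 1 the shallowest, and 25.0% of its reads fell on 1 gene. Reads of the RN7SL family of cytoplasmic RNAs made up 0.378%, 0.59% and 1.77% of the control libraries. In the sh-JMJD1C libraries they made up 1.18%, 15.7% and 18.5%, so sh-JMJD1C 1 lay within the control range. Mitochondrial reads made up 7.04%, 8.7% and 2.93% of the control libraries and 12.6%, 1.33% and 1.7% of the sh-JMJD1C libraries. MALAT1, a nuclear RNA, made up 1.25% to 2.40% of control and 0.0915% to 0.292% of sh-JMJD1C libraries. The part of these shifts in the results was not tested. Of the markers expected in the line, VIM, CD44 and S100A6 were abundant in every library, whereas NES had 2 to 20 reads, GFAP at most 6 and SOX2 at most 1 in any library. S100A6 was higher in sh-JMJD1C without overlap, at 136 to 252 scaled RPM (reads corrected for library size alone) in control and 328 to 1831 in sh-JMJD1C libraries, and the sum of the 6 line markers ran from 1066 to 1350 and from 1714 to 2711. Of 12 markers of other cell types, 2 (CD3E and PECAM1) had no read at all. Summed, the 12 ran from 292 to 529 scaled RPM in control libraries and from 1545 to 4782 in sh-JMJD1C libraries, nearly all of it the epithelial keratin KRT8. Without KRT8 the other 11 ran from 28.6 to 49.0 and from 14.7 to 22.7. The largest of these in every library was MBP, at 44.8, 27.2 and 21.0 in control and 16.5, 9.6 and 7.02 in sh-JMJD1C libraries. Of the 11, only MBP was lower without overlap and only VWF, with at most 2 reads in any library, was higher. The part of any of these shifts in the results was not tested.

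No member passed the test on log2 FPKM, in which 0.185% of 18383 genes did (0.125% lower and 0.0598% higher). Of the 9 members tested there with limma, 3 (APC, LRP6 and TNKS) had an unadjusted p under 0.05, against 19.9% of all genes. AXIN2 was below the filter of a mean FPKM of 0.5. On whole reads recovered from the FPKM, where all 10 members had the 60 reads required, APC fell and the other 9 did not pass, against 5.52% of 11877 genes called by limma-voom (1.81% lower and 3.71% higher). An unadjusted p under 0.05 was found on reads for 3 of the 10 members and for 30.8% of all genes. By scaled FPKM the groups did not overlap for 5 of the 9 members tested, 3 of them lower in sh-JMJD1C (APC, LRP6 and TNKS) and 2 higher (CTNNB1 and DVL1), against 26.7% of all genes (14.5% lower and 12.2% higher). By scaled RPM the same 5 of all 10 did not overlap, against 34.5% of the genes tested on reads (17.2% lower and 17.3% higher). The plot of member levels by library shows these 5 genes beside the others. In bulk RNA of this kind, fewer cells that express a gene and less of its RNA per cell cannot be told apart.

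**Figure D1:**
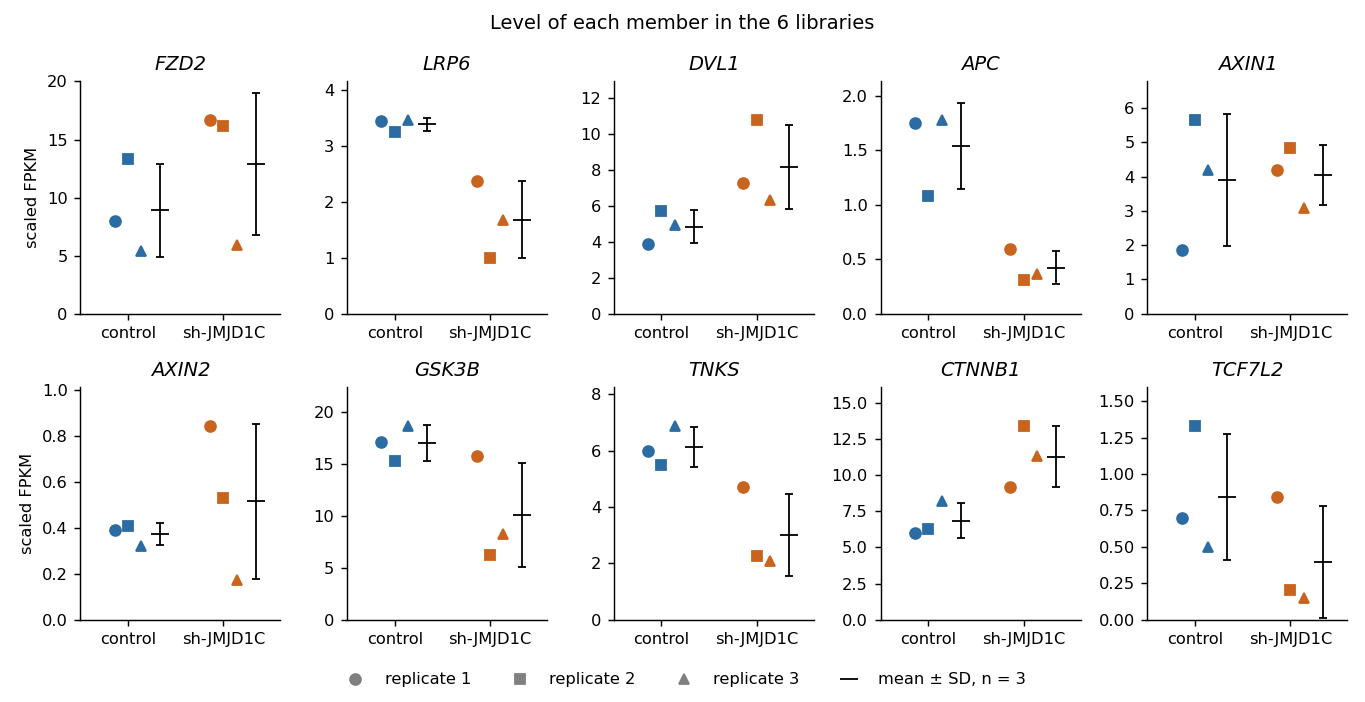
Scaled FPKM of each member (vertical axis, from 0, a separate scale for each gene) in the 3 control and 3 sh-JMJD1C libraries. Symbols mark the replicate number, and black bars give the mean ± SD (n = 3). APC, LRP6 and TNKS lie below every control library in all 3 sh-JMJD1C libraries, and CTNNB1 and DVL1 lie above.

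At the membrane, the 2 receptor members stood at different positions. LRP6 (ENSG00000070018, chromosome 12, 12116025 to 12267012, minus strand, hg38) measured 3.43, 3.24 and 3.46 scaled FPKM in the control libraries and 2.37, 0.987 and 1.68 in the sh-JMJD1C libraries. All 3 sh-JMJD1C values lay below the control range, and the control libraries were close to one another. The means were 3.38 ± 0.115 and 1.68 ± 0.691 (SD, n = 3 each), and the log2 fold change was -1.02 ± 0.40 (SE) on reads, with an adjusted p of 0.118. FZD2 (ENSG00000180340, chromosome 17, 44557459 to 44559570, plus strand), a gene with 1 annotated transcript, ranged from 5.37 to 13.3 scaled FPKM in control and from 5.88 to 16.7 in sh-JMJD1C libraries. These ranges overlapped and rested on 120 and 132 reads, and its log2 fold change on reads was 0.60 ± 0.55 (adjusted p = 0.468).

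DVL1 (ENSG00000107404, chromosome 1, 1335276 to 1349350, minus strand), the Dishevelled member, measured 3.86, 5.72 and 4.96 scaled FPKM in the control libraries and 7.30, 10.8 and 6.36 in the sh-JMJD1C libraries. Every sh-JMJD1C library was above every control library, and sh-JMJD1C 2 was the highest. The mean in sh-JMJD1C was 168% of the control mean, with a log2 fold change of 0.74 ± 0.38 on reads and an adjusted p of 0.198. Exons of DVL1 share bases with TAS1R3 on the other strand and with MIR6808, and no source used here says whether the authors counted by strand.

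APC (ENSG00000134982, chromosome 5, 112707498 to 112846239, plus strand), the large scaffold of the destruction complex, had the lowest log2 fold change of the members on FPKM and on reads, but not in every alternative. On reads, TCF7L2 was lower than APC with the length trend removed (-1.12 against -1.11) and with length and GC trends removed (-0.96 against -0.57). It was also lower without control 3 (-1.82 against -1.72) and without both libraries numbered 1 (-2.03 against -1.94). On FPKM, TNKS was lower than APC with a pseudocount of 1 (-0.88 against -0.83), without sh-JMJD1C 1 (-1.28 against -1.25) and without both libraries numbered 1 (-1.36 against -1.22). After quantile normalization GSK3B (-1.16) and TNKS (-0.95) were lower than APC (-0.82). APC had 35, 110 and 291 reads in the control libraries and 44, 20 and 22 reads in the sh-JMJD1C libraries. Scaled to the library these were 1.75, 1.08 and 1.78 FPKM in control and 0.593, 0.312 and 0.360 FPKM in sh-JMJD1C libraries. The highest sh-JMJD1C library stayed below the lowest control library, which was control 2. The mean went from 1.54 ± 0.399 to 0.422 ± 0.150 (SD, n = 3 each), 27.4% of control. On reads APC fell by 1.76 on the log2 scale (SE 0.43), 3.39-fold, with an adjusted p of 0.0409. On log2(FPKM + 0.5), a scale that understates differences at such low levels, the log2 fold change was -1.14 ± 0.37 and the adjusted p 0.175. The APC call on reads was lost without control 1, control 3, sh-JMJD1C 2 or sh-JMJD1C 3, where the adjusted p ran from 0.106 to 0.180, and without both libraries numbered 1 (-1.94, adjusted p = 0.0610). The precision of single libraries was set by few reads: the 20 reads of sh-JMJD1C 2 were 10.4 RPM, with an exact Clopper-Pearson interval of 6.36 to 16.1 at 95%. An exon of APC shares bases with AC008575.1 on the same strand, so some of these reads could belong to either gene. The same limit holds for AXIN2 with AC004805.1. Exons of TCF7L2 and TNKS share bases with AL158212.2 and AC021242.3 on the other strand.

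The sequences before the annotated starts of APC and DVL1 are shown because these 2 members stood on opposite sides of control. RefSeq's table on GRCh38.p14 has an entry for 6 of the 10 members, and each line gives the 250 bases upstream of a start, 5′ to 3′ on the gene's strand. Capitals mark the GC box, GGGCGG, on either strand. The first APC entry lies at chr5:112707248-112707497, the second at chr5:112737635-112737884, and that of DVL1 at chr1:1349419-1349668 on the minus strand.
APC, first start: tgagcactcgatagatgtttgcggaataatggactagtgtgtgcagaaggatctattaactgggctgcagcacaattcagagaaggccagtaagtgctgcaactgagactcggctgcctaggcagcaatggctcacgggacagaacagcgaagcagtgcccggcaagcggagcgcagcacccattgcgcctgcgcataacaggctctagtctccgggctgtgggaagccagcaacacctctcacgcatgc
APC, second start: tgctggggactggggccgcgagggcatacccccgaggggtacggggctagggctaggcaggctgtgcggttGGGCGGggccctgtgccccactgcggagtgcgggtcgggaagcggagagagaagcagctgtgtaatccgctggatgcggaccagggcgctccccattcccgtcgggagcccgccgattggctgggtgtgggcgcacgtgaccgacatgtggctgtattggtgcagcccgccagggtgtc
DVL1: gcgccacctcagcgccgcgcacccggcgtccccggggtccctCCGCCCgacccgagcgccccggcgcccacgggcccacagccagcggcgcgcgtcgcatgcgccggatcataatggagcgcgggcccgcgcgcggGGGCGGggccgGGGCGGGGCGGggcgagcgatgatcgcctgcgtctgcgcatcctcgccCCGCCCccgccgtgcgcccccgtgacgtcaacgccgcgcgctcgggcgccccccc
The first APC window is 56.4% GC with no GC box, the second 70% GC with 1, and that of DVL1 83.2% GC with 5, counting overlapping matches, against a median of 58% GC over 35116 windows. A GC box occurs in 42.6% of all windows. The other motifs searched on both strands were CCAAT (32% of all windows), the E-box CACGTG (6.34%), the NRF1 core TGCGCA (6.89%), the TCF and LEF core TCAAAG (11.2%) and the ETS core CCGGAAG (8.52%). The first APC window and that of DVL1 each hold 1 TGCGCA, and the second APC window holds 2 CCAAT and 1 CACGTG, in all 3 cases as a match of letters alone. None of these 3 windows holds TCAAAG, which says only that these letters are not in them.

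The other destruction complex members had values on both sides of control. GSK3B (ENSG00000082701, chromosome 3, 119821323 to 120094417, minus strand), the kinase, measured 17.2, 15.3 and 18.7 scaled FPKM in the control libraries and 15.8, 6.26 and 8.3 in the sh-JMJD1C libraries. Here sh-JMJD1C 1 lay inside the control range and the other two libraries of its group lay below it. The log2 fold change of GSK3B on reads was -0.80 ± 0.40 (adjusted p = 0.195). AXIN1 (ENSG00000103126, chromosome 16, 287440 to 352673, minus strand) ranged from 1.86 to 5.66 scaled FPKM in control and from 3.09 to 4.83 in sh-JMJD1C libraries, and its log2 fold change on reads was 0.09 ± 0.43 (adjusted p = 0.902). The sign for AXIN1 was not stable: it was -0.22 on reads without control 1, -0.04 without sh-JMJD1C 2 and -0.26 with scaling by library totals, and -0.15 on FPKM as deposited. AXIN2 (ENSG00000168646, chromosome 17, 65528563 to 65561647, minus strand), at once an axin scaffold and a target gene of the pathway, had 39 reads in control and 41 in sh-JMJD1C libraries. Its 3 reads in control 1 were no more than the upper limit that a count of 0 allows there, and its log2 fold change on reads was 0.40 ± 0.64 (adjusted p = 0.689).

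TNKS (ENSG00000173273, chromosome 8, 9555914 to 9782346, plus strand), the tankyrase member, measured 6.00, 5.47 and 6.87 scaled FPKM in the control libraries and 4.69, 2.27 and 2.08 in the sh-JMJD1C libraries. The groups did not overlap, with sh-JMJD1C 1 the nearest to control, as for LRP6 and GSK3B. The mean in sh-JMJD1C was 49.2% of the control mean, and the log2 fold change on reads was -1.05 ± 0.40 (adjusted p = 0.109). Without sh-JMJD1C 1, the test on reads called GSK3B (-1.14, adjusted p = 0.0352), LRP6 (-1.29, 0.0409) and TNKS (-1.40, 0.0186) lower along with APC, while the count over all genes went from 656 to 2334. The library left out here also differed from the rest of its group in RN7SL and mitochondrial reads, as given above. The part of that difference in these values was not tested.

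CTNNB1 (ENSG00000168036, chromosome 3, 41194741 to 41260096, plus strand), which encodes beta-catenin, was higher in the sh-JMJD1C libraries. It measured 6.00, 6.30 and 8.24 scaled FPKM in the control libraries and 9.15, 13.4 and 11.3 in the sh-JMJD1C libraries. All 3 sh-JMJD1C libraries were above all control libraries, control 3 and sh-JMJD1C 1 being the nearest pair. The means were 6.84 ± 1.21 and 11.3 ± 2.12 (SD, n = 3 each), 165% of control, with a log2 fold change of 0.77 ± 0.35 on reads and an adjusted p of 0.163. TCF7L2 (ENSG00000148737, chromosome 10, 112950250 to 113167678, plus strand), a DNA-binding partner of beta-catenin, ranged from 0.497 to 1.33 scaled FPKM in control and from 0.148 to 0.840 in sh-JMJD1C libraries. These ranges overlapped, and its log2 fold change on reads was -1.27 ± 0.64 (adjusted p = 0.193).

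Members differ in length and in base composition, and across all genes the difference between the groups followed both. Over the 11877 genes tested on reads, the median log2 fold change was -0.08, but it was 0.76 for genes whose longest annotated transcript is under 2000 nt and -0.89 for the 1021 genes of 8000 nt and over. By GC content of that transcript, the median was -1.01 under 40% and 0.65 at 60% and over. The longest transcripts of APC (10701 nt, 39.6% GC), LRP6 (10020 nt, 40.2%), TNKS (9620 nt, 43.3%) and GSK3B (7711 nt, 42.1%) are long and poor in GC, and all 4 had negative log2 fold changes. Among all genes of 8000 nt and over, 37.6% had groups that did not overlap with sh-JMJD1C lower. JMJD1C (8666 nt, 39.9% GC) falls in that length class and in the GC class under 40%. The longest transcripts of DVL1 (3239 nt, 67.2% GC) and FZD2 (2112 nt, 64.9%) are shorter and rich in GC. CTNNB1 (4888 nt, 43.5% GC) was above the median of its class on both axes, -0.34 for 4000 to 6000 nt and -0.60 for 40 to 45% GC. TCF7L2 (4136 nt, 45.8% GC) at -1.27 was below both of its class medians, -0.34 and -0.11 for 45 to 50% GC. AXIN1 (6340 nt, 63.8% GC) at 0.09 was above the median of -0.66 for 6000 to 8000 nt and below that of 0.65 for its GC class. AXIN2 (4259 nt, 53.1% GC) at 0.40 was above both of its own, -0.34 and 0.28 for 50 to 55% GC.

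**Figure D2:**
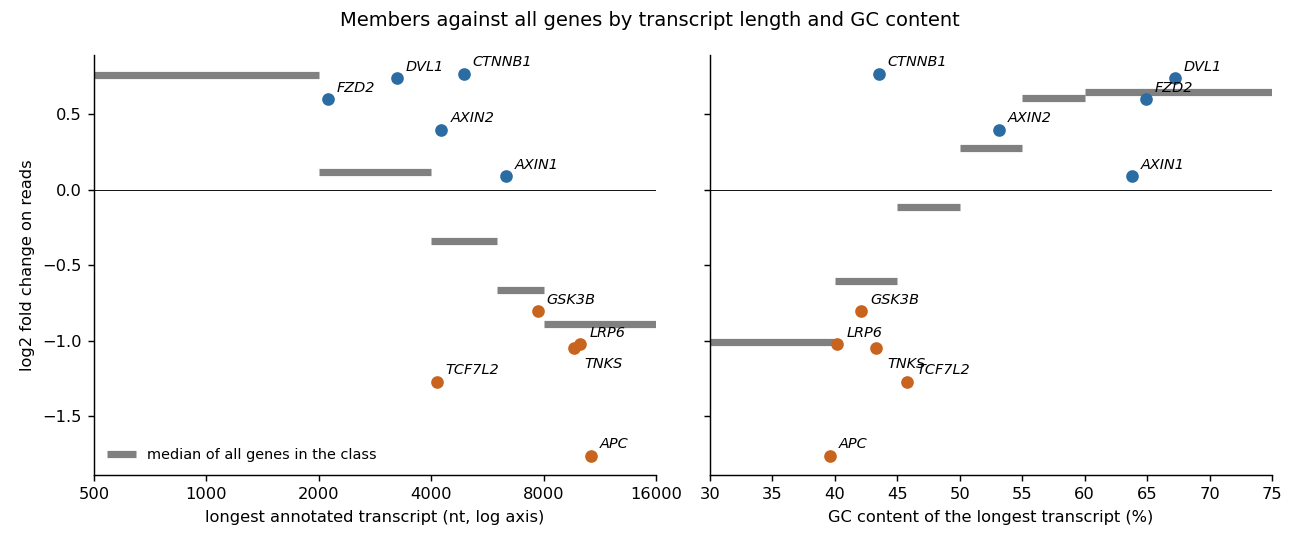
Log2 fold change of each member on recovered reads (vertical axis) against the length of its longest annotated transcript (left, log axis, nt) and that transcript's GC content (right, %). Grey bars give the median of all genes tested in each class, from 0.76 under 2000 nt to -0.89 at 8000 nt and over, and CTNNB1 sits above the bar of its class in both panels.

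With the trend over length removed by a lowess curve in each library, no member passed the test, against 3.57% of 11857 genes called (1.10% lower and 2.47% higher). APC then had a log2 fold change of -1.11 ± 0.37 (adjusted p = 0.0978), and LRP6, TNKS and GSK3B had -0.38, -0.42 and -0.26. With the GC trend removed as well, APC was at -0.57 ± 0.34 (adjusted p = 0.318), TNKS at -0.10, LRP6 at 0.12 and GSK3B at 0.13, none of which passed. In that fit CTNNB1 rose by 1.32 ± 0.33 on the log2 scale (adjusted p = 0.0462), the only member called, against 5.80% of all genes (2.55% lower and 3.26% higher). Values for CTNNB1 thus grew from 0.77 on reads to 1.01 and 1.32 as the trends were removed, while those of APC shrank. JMJD1C shrank too, from -2.49 on reads to -1.91 (adjusted p = 0.0358) and -1.39 (adjusted p = 0.0422). TCF7L2 was the lowest member in both fits with trends removed, at -1.12 and -0.96, and passed in neither. Single libraries were not left out in the last 2 fits, and whether the trends come from the RNA or from its handling was not tested.

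**Figure D3:**
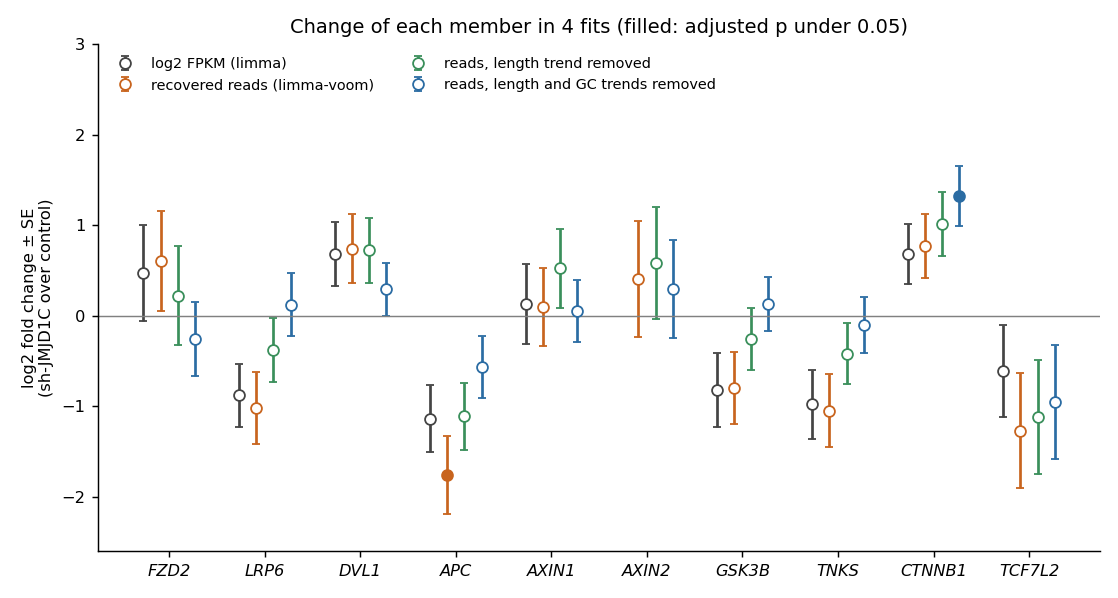
Log2 fold change ± SE of each member, sh-JMJD1C over control (vertical axis), in 4 fits shown by colour: log2 FPKM, recovered reads, reads with the length trend removed, and reads with length and GC trends removed. Filled points have an adjusted p under 0.05, which holds for APC on reads and for CTNNB1 with both trends removed, and AXIN2 has no point on FPKM.

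Counting each member against CTNNB1 within the same library takes the library scaling out. CTNNB1 was itself higher in sh-JMJD1C without overlap, so a lower ratio to it is in part built in. These ratios were chosen after the values were seen, and they carry no test. The reads of CTNNB1 and GSK3B rest on inferred gene lengths, and a wrong length would change a ratio by the same factor in every library. APC had 0.530, 0.310 and 0.392 reads per CTNNB1 read in the control libraries and 0.117, 0.0423 and 0.0577 in the sh-JMJD1C libraries. Pooled, that was 0.375 in control and 0.0700 in sh-JMJD1C libraries. GSK3B and TNKS had as many reads as CTNNB1 or nearly so in control libraries, from 1.0 to 1.27 and from 0.834 to 1.0 per CTNNB1 read, and 0.207 to 0.763 and 0.169 to 0.512 in sh-JMJD1C libraries. LRP6 ran from 0.445 to 0.606 and from 0.0782 to 0.275. For APC, GSK3B, TNKS and LRP6 the groups did not overlap, against 36.5% of all genes with a ratio to CTNNB1 that was lower without overlap. GSK3B overlapped in scaled FPKM and scaled RPM, and its groups came apart only on division by CTNNB1. DVL1 stayed level with CTNNB1, at 0.312 to 0.470 in control and 0.291 to 0.416 in sh-JMJD1C libraries, and the ratios of AXIN1, AXIN2, FZD2 and TCF7L2 overlapped too.

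**Figure D4:**
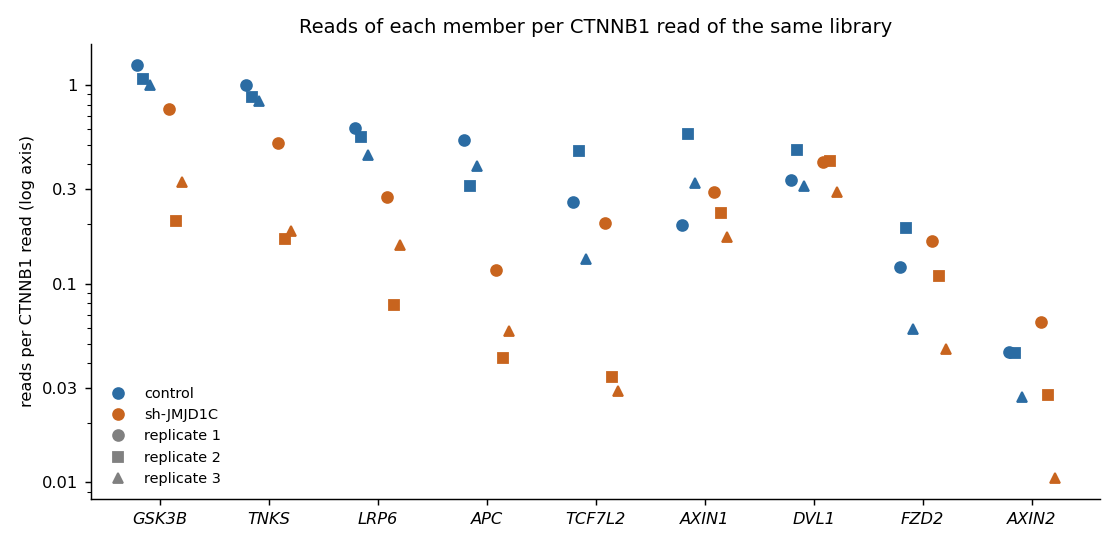
Reads of each other member per CTNNB1 read of the same library (vertical log axis), by group (colour) and replicate number (symbol). For GSK3B, TNKS, LRP6 and APC all 3 sh-JMJD1C points lie below all 3 control points, whereas for DVL1 the points of the groups mix. CTNNB1, the divisor, was itself higher in sh-JMJD1C without overlap.

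The order of levels among members shifted with these differences. Levels between genes are given here as scaled RPM per kilobase of the longest annotated transcript, because the deposited FPKM was divided for most genes by the summed length of all annotated transcripts. For CTNNB1 and GSK3B the reads rest on an inferred length, so their places in the order depend on it. In control libraries CTNNB1 was the highest at 31.8 ± 4.62 (SD, n = 3), above the range of GSK3B at 22.3 ± 1.91. DVL1 (17.7 ± 3.24) and TNKS (14.5 ± 1.37) came next, and neighbours from GSK3B to TNKS overlapped. TCF7L2, AXIN1, FZD2 and LRP6 followed with means from 8.15 to 10.3 and could not be ordered beyond their spread. APC at 5.93 ± 1.53 lay below the range of LRP6, and AXIN2 at 1.39 ± 0.212 lay below that of APC. In sh-JMJD1C libraries CTNNB1 (54.9 ± 11.4) and DVL1 (31.0 ± 9.41) headed the order without overlapping each other or GSK3B (13.7 ± 6.51), and APC (1.69 ± 0.567) was level with AXIN2 (1.98 ± 1.27) within their spread.

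Paralogs of the members gave a check of whether whole families sat on 1 side. TNKS2, the second tankyrase, was lower without overlap like TNKS, at 34.4% of the control mean in scaled RPM, with a log2 fold change of -1.55 ± 0.50 (adjusted p = 0.0730). LRP5, the relative of LRP6, had 0.77 ± 0.42 (0.226). The LRP6 to LRP5 ratio of reads was 0.7 to 1.48 in control and 0.155 to 0.480 in sh-JMJD1C libraries, without overlap. GSK3B to GSK3A did not overlap either (2.67 to 10.8 and 1.09 to 2.64). The ratios of APC to APC2, TNKS to TNKS2, DVL1 to DVL2, DVL1 to DVL3 and AXIN1 to AXIN2 overlapped. These ratios carry no test, and no share over other gene pairs is given. GSK3A had 0.74 ± 0.52 (0.338) against -0.80 for GSK3B, and the longest transcripts of LRP5 (62.8% GC) and GSK3A (52.0% GC) are richer in GC than those of LRP6 and GSK3B. APC2, much lower than APC in control libraries at 1.2 ± 0.529 scaled RPM per kilobase, had -0.34 ± 0.58 (0.709). DVL2 had 0.48 ± 0.44 (0.470) and DVL3 -0.66 ± 0.47 (0.351), so the 3 Dishevelled genes had no common sign. Of the other Frizzled genes, FZD4 (-1.26, adjusted p = 0.162) and FZD5 (-1.62, 0.121) were lower without overlap, FZD6 (-1.70, 0.0822) was lower with overlap and FZD10 had 0.86 (0.221). Over all genes tested on reads, 17.2% were lower without overlap in scaled RPM, as TNKS2, FZD4, FZD5 and, among relatives of TCF7L2, TCF7 were. FZD1, FZD3, FZD7, FZD8 and FZD9 had too few reads for the test. Among relatives of TCF7L2, TCF7 had -1.92 ± 0.68 (0.0917) and LEF1 -0.08 ± 0.80 (0.955), and TCF7L1 had 6 reads in all libraries together. None of these paralogs passed the test.

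Over 121 distinct genes in 9 lists of the pathway, 19 had no read and 75 were tested in each of the fits on FPKM and on reads. On FPKM none passed with limma, 15 had an unadjusted p under 0.05, against 19.9% of all genes, and the median log2 fold change was -0.13, beside -0.16 over all genes. On reads 3 of the 75 passed, which is no larger a share than the 5.52% called over all genes: APC fell, and PPP2R1A and TLE5 rose. By scaled RPM, 14 of the 75 were lower without overlap and 8 were higher, against 17.2% and 17.3% of all genes. PPP2R1A, a scaffold subunit of protein phosphatase 2A, measured 2.46, 4.49 and 4.28 scaled FPKM in the control libraries and 11.5, 20.8 and 10.2 in the sh-JMJD1C libraries. It rose by 1.87 ± 0.41 on the log2 scale (adjusted p = 0.0310), and its value was 1.88 (0.0233) with both trends removed. TLE5, a short member of the family of TCF corepressors, measured 6.04, 11.8 and 4.91 scaled FPKM in control and between 18 and 29 in sh-JMJD1C libraries. It rose by 1.67 ± 0.43 (adjusted p = 0.0461), with 1.65 (0.0503, not passed) when the length trend alone was removed and 1.21 (0.0423) when both trends were. With scaling by library totals neither passed, PPP2R1A at 0.0521 and TLE5 at 0.0743. Both calls on reads were lost without control 1, control 3, sh-JMJD1C 2 or sh-JMJD1C 3, with an adjusted p of 0.0576 to 0.128 for PPP2R1A and of 0.0802 to 0.182 for TLE5. Both were lost too without the libraries numbered 1 (0.0547 and 0.0911).

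Medians by role are given on reads, and no difference between lists was tested. Of 5 tested genes of the tankyrase axis (TNKS, TNKS2, USP34, USP7 and SIAH1), none passed, 4 were lower without overlap, against 17.2% of all genes, and the median log2 fold change was -1.55. The 17.2% takes no account of length, and among all genes of 8000 nt and over, TNKS among them, the share was 37.6%. The median of the list was -1.01 with the length trend removed and -0.51 with length and GC trends removed. SIAH1, a ubiquitin ligase named here after its value was seen, had an adjusted p of 0.0504 at -2.02 ± 0.54, and USP7, the highest of the list per length, had -0.89 ± 0.48 (0.217). Of 17 destruction complex genes, PPP2R1A was higher and APC lower, the other 15 did not pass, and the median was -0.14. CSNK1D, the highest of that list per length, had -0.13 ± 0.36 (adjusted p = 0.825). Of 18 tested genes of the beta-catenin and TCF complex, TLE5 was higher, the other 17 did not pass and the median was -0.16. None passed among 10 receptors and co-receptors (median -0.24), 7 ligand and secretion genes (0.40), 6 genes of the Dishevelled relay (0.03), 4 inhibitors (0.53), 4 junction partners of beta-catenin (0.42) or 10 target genes (0.05). With both trends removed the order of the lists changed: the Dishevelled relay had the lowest median at -0.64, the ligands had -0.35 and the inhibitors 0.05. The genes highest per length in these lists were LGR4 with -0.85 (adjusted p = 0.227), WNT10B with 0.40 (0.488), NKD2 with -0.08 (0.902), DKK1 with 0.14 (0.863), JUP with 0.53 (0.459) and MYC with 0.48 (0.449). With length and GC trends removed, NOTUM, named here after its value was seen, which inactivates Wnt ligands and is itself a target gene, fell with a log2 fold change of -1.52 (adjusted p = 0.0452), and it was not called in the fits on FPKM or reads. Its groups overlapped in scaled RPM, at 17.1, 19.1 and 11.2 in control and 6.24, 17.8 and 5.62 in sh-JMJD1C libraries. The sh-JMJD1C values rest on 11, 26 and 8 reads.

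**Figure D5:**
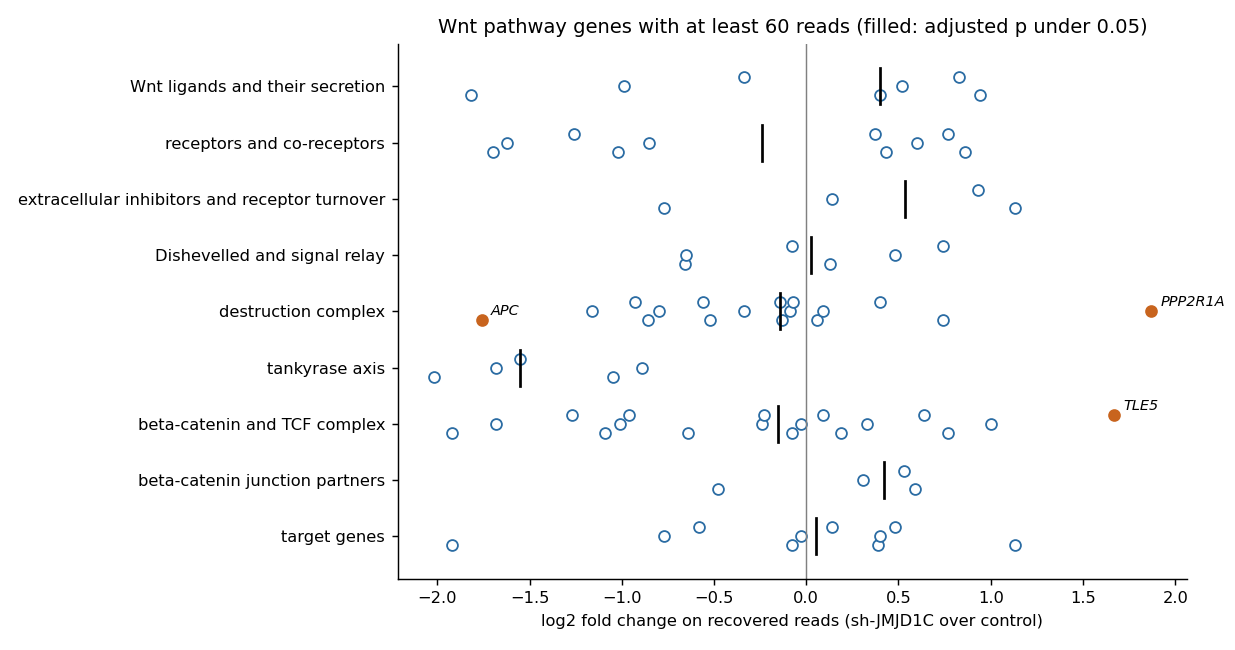
Log2 fold change on recovered reads (horizontal axis, sh-JMJD1C over control) of the pathway genes with at least 60 reads, by list, where a gene may stand in several lists and short black lines give each list's median. The filled points are APC, PPP2R1A and TLE5, the 3 genes with an adjusted p under 0.05, and the tankyrase axis has the lowest median in this fit at -1.55, which was -0.51 with length and GC trends removed.

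The genes most like APC over the 6 libraries, by Pearson's r of log2 scaled RPM among 10201 protein-coding genes, were UTRN (r = 0.999), NFAT5 (0.997) and FBXW2 (0.996). Those most like CTNNB1 were MAGEA6 (0.995), WDR4 (0.990) and COMMD4 (0.988). Between members, APC had r = 0.934 with TNKS, 0.917 with LRP6 and 0.886 with GSK3B, and -0.899 with CTNNB1 and -0.887 with DVL1. These values describe 6 libraries that share depth, group and the length and GC trends, and they carry no test.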

How the data were processed

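Tables of FPKM for 58174 Ensembl genes in 6 libraries were deposited by the authors. Per the file headers, their columns hold FPKM on rising shares of each library's reads, and the last, the full library, was used. Per the submitters' processing notes, Bowtie 0.12.2 and hg38 were named, with no role. The counter, its annotation and strand use: not given in the sources used here. Each library was divided by a median-ratio factor, and limma 3.58.1 (R 4.3.3, trend, group alone, two-sided) was run on log2(FPKM + 0.5) where the mean FPKM reached 0.5, with Benjamini-Hochberg adjustment over all genes at 0.05.

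Whole reads were recovered from FPKM steps, the gene's length (GENCODE 29) and the library total. Of values under 1000 reads, 100.0% came out whole within 0.05 of a read, in part because, for 1797 of 29280 genes, the length was the smallest that made them whole. Among the members this holds for CTNNB1 (23250 nt, against 159275 nt summed over its transcripts) and GSK3B (10303 against 12260 nt). Their read numbers rest on these inferred lengths. Limma-voom was run on genes with at least 60 reads, also with lowess trends (span 0.3) over length and GC of the longest transcript removed. The recovery of reads and limma-voom without trend removal were run on simulated data. The removal of length and GC trends was not tested in this way. Intervals (95%) and floors (3 reads for a count of 0, 1.01 to 5.51 RPM) cover counting error only.

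The members and gene lists were chosen with earlier results of these data known. Named were all members, pathway genes called on FPKM or reads, paralogs, the highest gene of each list per length and, for APC and CTNNB1, the 3 most similar genes. SIAH1 and NOTUM fall outside this rule and were named after their values were seen. Alternatives covered pseudocount, filter, scaling, weights, biotype and left-out libraries.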

Additional observations from a re-analysis of the deposited data

How the results depend on the processing

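Genes called by limma on log2 FPKM numbered 34, of which 32.4% were higher. They numbered 0 with a pseudocount of 1 (3587 at an unadjusted p under 0.05), 0 without the filter (3821) and 0 without both libraries numbered 1 (4236). They numbered 84 with a pseudocount of 0.1, 79 on FPKM as deposited, 2 after quantile normalization, 118 with array weights (51.7% higher) and 911 among protein-coding genes only (59.6% higher). With single libraries left out there were 0 to 475 calls, the 475 without sh-JMJD1C 1 (78.1% higher), and at 0 calls 2012 to 3707 genes had an unadjusted p under 0.05. On recovered reads there were 656 calls (67.2% higher), 423 with the length trend removed, 688 with length and GC trends removed (56.1% higher), 1195 when scaled by library totals (26.0% higher), 895 without both libraries numbered 1 (88.3% higher) and 31 to 2334 with single libraries left out (1288 without control 2 and 97 without sh-JMJD1C 3). The median of all genes on reads moved from -0.08 to -0.52 with library totals, and on FPKM from -0.16 to -0.38 as deposited.

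Members called numbered 0 in the FPKM fit and in each of its alternatives. They numbered 1 on reads (APC), 1 with length and GC trends removed (CTNNB1), 1 with library totals (APC, -2.19, adjusted p = 0.0175) and 0 to 4 on reads with single libraries left out. Pathway genes called were 3 among protein-coding genes only, 3 on reads, 1 with the length trend removed, 4 with length and GC trends removed, 9 with library totals and 0 to 14 on reads with single libraries left out (7 without control 2). JMJD1C, at -1.82 on FPKM, passed at -1.82 among protein-coding genes only, -2.49 on reads, -1.91 and -1.39 with the trends removed, -2.92 with library totals and -2.83 on reads without both libraries numbered 1. On reads with single libraries left out it ran from -2.91 to -1.92, with -2.81 without control 2.

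Signs turned for AXIN1 at -0.15 on FPKM as deposited, -0.26 with library totals, -0.34 on FPKM and -0.22 on reads without both libraries numbered 1, and from -0.30 to 0.42 on FPKM and from -0.22 to 0.42 on reads with single libraries left out (-0.04 without sh-JMJD1C 2). AXIN2 turned at -0.16 with library totals and -0.05 on reads without both libraries numbered 1, and ran from -0.08 to 1.0 with single libraries left out. With length and GC trends removed, GSK3B turned at 0.13, LRP6 at 0.12 and FZD2 at -0.26, and FZD2 ran from -0.00 to 1.09 on reads with single libraries left out. The cause was not tested beyond what each alternative changes. APC, CTNNB1, DVL1, TCF7L2 and TNKS kept their sign in every alternative run.

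Same-numbered libraries of the groups had deviations that correlated at 0.009, 0.14 and 0.22, and differently numbered ones at -0.265 to 0.124. These values do not settle whether the numbers pair the libraries, and the main fits took no pairing. With the replicate number as a block, limma on FPKM called 0 genes (4406 at an unadjusted p under 0.05), and the block on reads called 4260 (55.2% higher), 24 of them pathway genes and 4 of them members. The members were APC, CTNNB1 (adjusted p = 0.0499), LRP6 and TNKS, and JMJD1C was at -2.48 under that block. Depth limits AXIN2 and FZD2 most, with 80 and 252 reads over all libraries.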
